A study of Homo sapiens with 6 samples.

Results

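The HOX cluster genes are the homeobox transcription factor genes of the HOXA, HOXB, HOXC and HOXD clusters, described here in bulk RNA-seq of hFOB 1.19 cells. Members were chosen by gene symbol alone (HOX, a cluster letter from A to D and a number), and 38 of the 35639 genes in the table are described. Of these, 34 had a mean of at least 10 over the 5 libraries compared and were tested, and the other 4 (HOXB1, HOXC12, HOXD12 and HOXD13) were too low.

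The human hFOB 1.19 line was derived from fetal bone-forming cells and divides through a heat-labile large T antigen, so that it was grown here at 34 °C. The cells were transduced with a lentiviral vector that also encodes the dTomato fluorophore. The 3 groups carried the vector without a histone insert (EV), a wild-type H3.3 histone (H3.3-WT, written WT below) or H3.3 with glycine 34 replaced by tryptophan (H3.3-G34W, written G34W below), the substitution found in giant cell tumour of bone. The question was what the mutant histone does to transcription in osteoblastic cells. Per the study's methods, the transgene was a tagged Drosophila H3.3 cDNA, so it could not be followed in a table of human genes, and the sorted dTomato-positive cells were bulk populations and not clones. Each group has 2 libraries. Per the study's methods, replicates are in general separate wells, but the RNA-seq duplicates are not said to come from separate transductions. A p-value therefore measures only the spread between these libraries, part of which may be technical. Groups follow the sample titles, with which the column names match, whereas the genotype characteristic in the labels swaps WT and G34W. The direction of every difference below rests on the titles.

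Values are normalised signal, taken to be estimated counts that the authors normalised with DESeq2. Whether a single factor per library was used is not given. They are not whole reads, and the depth of each library is not known. The values summed to between 38821143 and 48024590 in 5 libraries, whereas those of EV replicate 1 summed to 157595150. This library listed 28688 of all genes at 0, and 30 of the 38 HOX genes, including every member of the HOXA, HOXB and HOXD clusters. It was left out of every comparison, so that EV is represented by replicate 2 alone, which was assumed to vary like the other groups.

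G34W replicate 1 also stood apart. Across the tested genes its log2 values correlated with those of the other 4 libraries at Pearson's r of 0.906 to 0.916, against 0.962 to 0.974 between those 4 libraries. The 13 markers of pluripotent stem cells summed to 66657 in it, against 964 to 1142 in the other 4 libraries. The most abundant, POU5F1, was at 19441 in G34W replicate 1 and at 41.6 to 75.4 elsewhere. HOX results are therefore also given without this library, and the part that these transcripts had in the HOX values was not tested. Osteoblast markers were present in all 5 libraries, where their sum lay between 202285 and 267650, led by COL1A2. Single markers were less even than this sum. ALPL was at 1216 in G34W replicate 1 and at 107 to 428 in the other 4 libraries. THY1 was at 7023 in G34W replicate 1 and at 2537 to 2955 in the other 4 libraries. RUNX2 was instead lowest in G34W replicate 1, at 236 against 387 to 573. Later markers were uneven, with SPP1 at 171 to 649, BGLAP at 4.08 to 44.9, SP7 at no more than 6.03 and IBSP listed at 0 in 4 of the 5 libraries.

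HOX genes lie in clusters in which the order of the genes along the chromosome matches the order in which they are expressed along the body axis. Genes at the same position in different clusters are paralogs and share a number, low numbers being anterior and high numbers posterior. Cells of mesenchymal origin keep a HOX pattern that reflects the place in the body from which they came, and posterior HOXA and HOXD genes shape the limb skeleton. Chromatin states set by Polycomb and trithorax proteins hold these patterns in place.

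In the control libraries (EV replicate 2 and both WT libraries) the cells expressed genes from every cluster and nearly every paralog group. To compare genes, signal was divided by the length of each gene's canonical transcript, and this level is given per kilobase. HOXB7 was highest, with a mean of 899.8 per kilobase over the 3 control libraries (715 to 1058). HOXA10 (464), HOXB2 (442), HOXA9 (404) and HOXB4 (341) followed. HOXB7 lay above the other HOX genes in each of the 3 libraries, whereas the ranges of HOXA10, HOXB2 and HOXA9 overlapped and their order is not set by these data. The HOXA cluster was high at its posterior genes 9, 10 and 11 and low at paralog groups 2 to 7, where no mean exceeded 65.8 per kilobase. The HOXB cluster was high at groups 2, 4, 6 and 7 and low at HOXB8 (18.0 per kilobase) and HOXB5 (17.6). HOXC9 (284) and HOXC6 (222) led the HOXC cluster. In the HOXD cluster HOXD10 (206), HOXD11 (187), HOXD8 (186) and HOXD4 (165) were close to one another. Summed per kilobase, the HOXB cluster was highest (1950 to 2606 over the control libraries), then HOXA (1417 to 1461), HOXD (893 to 1047) and HOXC (678 to 887), with only the ranges of HOXD and HOXC close.

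**Figure D1:**
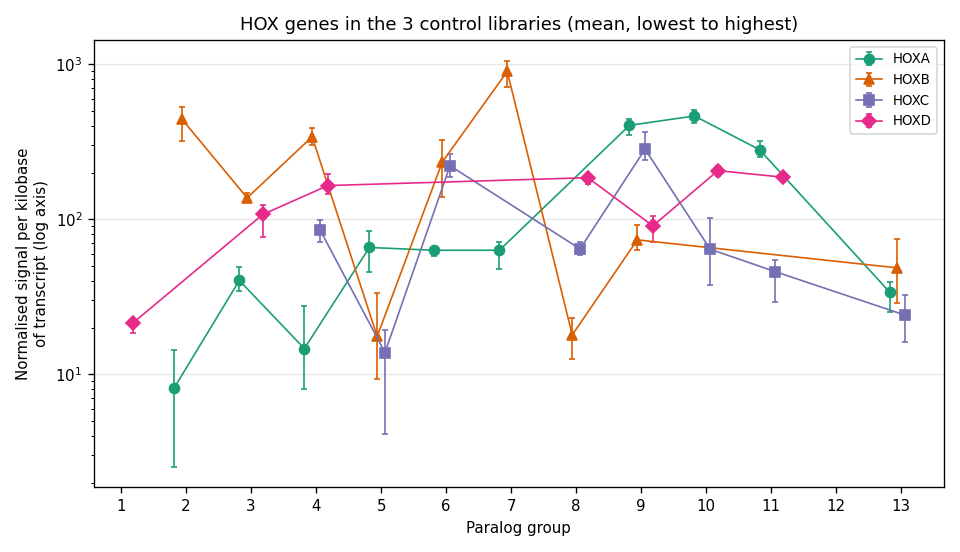
Normalised signal per kilobase of transcript (log axis) of the 34 tested HOX genes against paralog group, 1 line per cluster; points are means and bars the lowest to highest of EV replicate 2 and the 2 WT libraries. HOXB7 is highest at 899.8, and the HOXA genes 9 to 11 lie above the HOXA genes 2 to 7.

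The main comparison asked which HOX genes differ between G34W and WT. No HOX gene passed the test at an adjusted p under 0.05 (limma, Benjamini-Hochberg over 16259 genes), where 1 gene in all, 0.00615%, was called. At an unadjusted p under 0.05, 7 of the 34 HOX genes were lower in G34W (HOXB7, HOXB8, HOXB13, HOXC11, HOXC13, HOXD10 and HOXD11), against 192 genes, 1.18%, of all genes tested. In the opposite direction it was 0 of 34 HOX genes, against 254 genes, 1.56%. With a library left out, the HOX genes counted as lower were not always among the 7. HOXA13, for 1, was counted without WT replicate 2. The 7 became 4 without G34W replicate 1, where 0.713% of all genes were lower, and also 4 without WT replicate 2, where 0.83% were. Without G34W replicate 2 the single gene called became 69, of which 0 were HOX genes. Both G34W libraries lay below both WT libraries for 19 of the 34 HOX genes, and for 14.7% of all genes tested. Both lay above for 0 of the 34, and for 11.6% of all genes. All 19 were also below EV replicate 2, a position shared by 9.55% of all genes. The median G34W minus WT difference was -0.56 over the 34 HOX genes and -0.06 over all genes tested, on the log2(signal + 1) scale used for every fold change here, which understates changes of low genes. Fitted differences were below 0 for 32 of the 34, with HOXA2 and HOXA7 above 0. With each library rescaled to a median ratio of 1, 18 of the 34 did not overlap, as for 14.3% of all genes, and the median was -0.49, against 0.012 over all genes.

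These counts depended on G34W replicate 1 to differing degrees. Without it, the median of the HOX genes was -0.22, and 21 of the 34 lay below both WT libraries in G34W replicate 2, against 23.2% of all genes. In G34W replicate 1 alone, 27 of the 34 lay below both, against 47.6% of all genes, with a median of -0.80 for the HOX genes and -0.17 for all genes. The 4 HOX genes that stayed under an unadjusted p of 0.05 without replicate 1 were HOXB8, HOXC13, HOXD10 and HOXD11. In bulk RNA, fewer cells that express a gene and less RNA per cell cannot be told apart.

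**Figure D2:**
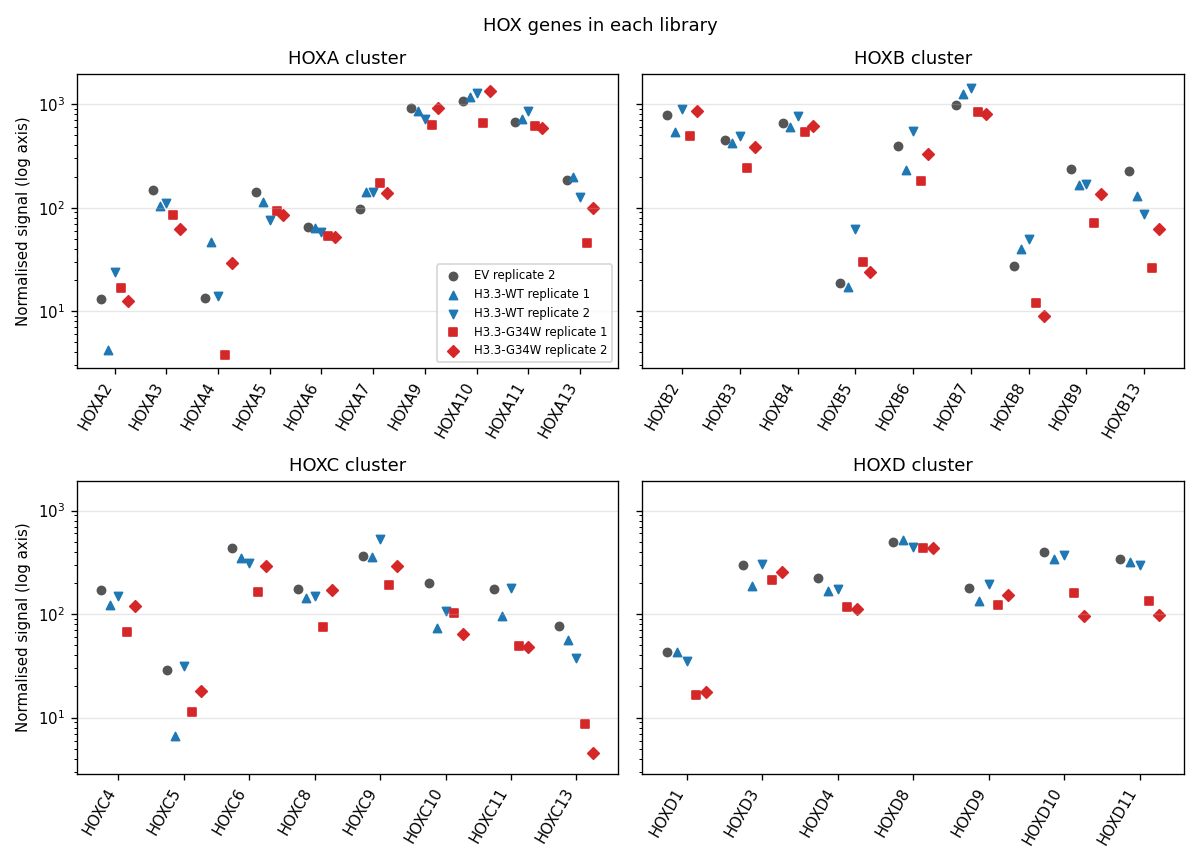
Normalised signal (log axis) of the 34 tested HOX genes in each of the 5 libraries compared, 1 panel per cluster and 1 symbol per library. The G34W libraries lie below the WT libraries for 19 genes, with the widest gaps at HOXC13, HOXB8, HOXD10 and HOXD11.

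In the HOXA cluster, on chromosome 7, no gene passed either threshold. The median difference of its 10 genes was -0.29, and 4 of them (HOXA3, HOXA6, HOXA11 and HOXA13) were lower in both G34W libraries than in both WT libraries. Of the anterior genes, HOXA2, which patterns the pharyngeal arches, was at 13.1 in EV replicate 2, 4.24 and 24.1 in WT, and 16.6 and 12.5 in G34W. HOXA3, needed for the thymus and parathyroid, was at 149.6 in EV replicate 2, 105 and 111 in WT, and 84.7 and 62.1 in G34W. The groups of HOXA2 overlapped and those of HOXA3 did not. Among the central genes, HOXA4 was at 13.5 in EV replicate 2, 46.8 and 13.9 in WT, and 3.82 and 29.5 in G34W. HOXA5, which acts in lung development, was at 141 in EV replicate 2, 112 and 76.2 in WT, and 92.6 and 85.7 in G34W. For HOXA4 and HOXA5 the groups overlapped. HOXA6 was at 65.8 in EV replicate 2, 63.8 and 57.7 in WT, and 53.0 and 51.8 in G34W, a small but separate gap. HOXA7 was at 97.0 in EV replicate 2, 143 and 142 in WT, and 172 and 139 in G34W, where the groups overlapped and EV replicate 2 was lowest.

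The posterior HOXA genes held most of the signal of the cluster. HOXA9, a regulator of blood stem cells and limb, was at 916 in EV replicate 2, 865 and 721 in WT, and 633 and 925 in G34W. HOXA10, which takes part in skeletal and uterine development, was at 1066 in EV replicate 2, 1182 and 1292 in WT, and 657 and 1338 in G34W. For both genes G34W replicate 1 was lowest of the 5 libraries and G34W replicate 2 highest. HOXA11, which with HOXD11 shapes the forearm and lower leg, was at 674 in EV replicate 2, 720.4 and 859.6 in WT, and 619 and 594 in G34W, without overlap. HOXA13, needed for hands, feet and the urogenital tract, was at 186 in EV replicate 2, 198 and 127 in WT, and 45.5 and 99.9 in G34W. Its groups did not overlap, and its difference of -1.22 (SE 0.57, 95% confidence interval -2.47 to 0.03) included 0. It was -0.66 without G34W replicate 1, and passed an unadjusted p of 0.05 without G34W replicate 2 (-1.78) or without WT replicate 2 (-1.54). The summed HOXA signal was 3441 and 3425 in WT, 3322 in EV replicate 2, and 2377 and 3338 in G34W, so that only G34W replicate 1 was clearly below the rest.

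In the HOXB cluster, on chromosome 17, the median difference of the 9 tested genes was -0.57, and 5 of them were without overlap and lower in G34W. HOXB2, a hindbrain regulator, was at 792 in EV replicate 2, 539 and 898 in WT, and 496 and 864 in G34W. HOXB3 was at 447 in EV replicate 2, 424 and 490.1 in WT, and 242 and 390.4 in G34W. HOXB4, which supports blood stem cells, was at 665 in EV replicate 2, 606 and 777 in WT, and 534 and 619.7 in G34W. Of these only HOXB3 was separate between the groups. HOXB5 was at 18.7 in EV replicate 2, 17.2 and 61.9 in WT, and 30.2 and 23.9 in G34W. HOXB6 was at 395 in EV replicate 2, 234 and 546 in WT, and 179.8 and 332 in G34W. The groups of both overlapped, and their WT libraries differed from each other by more than the group means did.

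HOXB7, the HOX gene with the highest level per kilobase, was at 975 in EV replicate 2, 1261 and 1443 in WT, and 838 and 802 in G34W. The groups were separate, with EV replicate 2 between them. The difference was -0.72 (SE 0.28, 95% confidence interval -1.33 to -0.11; limma adjusted p = 0.9998), and the interval against EV replicate 2 included 0 (-0.25, SE 0.34). Without any 1 of the WT or G34W libraries HOXB7 no longer passed an unadjusted p of 0.05, with differences from -0.82 to -0.62. HOXB8, the next gene of the cluster, was at 27.3 in EV replicate 2, 39.8 and 50.1 in WT, and 11.9 and 8.91 in G34W. Both G34W libraries were below the 3 controls, with a difference of -2.01 (SE 0.90, 95% confidence interval -3.98 to -0.05; limma adjusted p = 0.9998). It passed an unadjusted p of 0.05 without G34W replicate 1 (-2.20) but not without either WT library or G34W replicate 2 (-2.17 to -1.82). The span of HOXB7 overlaps those of HOXB8 and HOXB9 on the same strand in GENCODE, though not in RefSeq. Reads from shared stretches may therefore have been divided among them by the quantification. The same holds in GENCODE for HOXA3 with HOXA4, HOXA5 and HOXA6, and for HOXA9 with HOXA10. It also holds for HOXB3 with HOXB4, HOXB5 and HOXB6, for HOXC6 with HOXC8 and HOXC9, and for HOXD3 with HOXD4. HOXB9 was at 237 in EV replicate 2, 165 and 169.8 in WT, and 71.2 and 135 in G34W, separate but with an interval that included 0 (-0.76, SE 0.51, and -0.30 without G34W replicate 1). HOXB13, which lies apart from the rest of the cluster and is best known from the prostate, was at 226 in EV replicate 2, 130.0 and 87.4 in WT, and 26.1 and 62.0 in G34W. It was highest in EV replicate 2 and lowest in G34W, with a difference from WT of -1.38 (SE 0.63, 95% confidence interval -2.75 to -0.01; limma adjusted p = 0.9998). It passed an unadjusted p of 0.05 without G34W replicate 2 (-1.99) and not without any other of the 5 libraries, being -0.77 without G34W replicate 1.

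The HOXC cluster, on chromosome 12, had a median difference of -0.58 over 8 tested genes, of which 5 were separate and lower in G34W. HOXC4 was at 169 in EV replicate 2, 121 and 149 in WT, and 66.6 and 121 in G34W, where 1 library of each group nearly met. HOXC5 was at 28.7 in EV replicate 2, 6.66 and 31.3 in WT, and 11.3 and 18.2 in G34W, with overlap. HOXC6 was at 439 in EV replicate 2, 349 and 310.0 in WT, and 163 and 294 in G34W, without overlap. HOXC4, HOXC5 and HOXC6 share a start in RefSeq, and their values may share reads. HOXC8, which patterns the thorax, was at 173 in EV replicate 2, 143 and 151 in WT, and 75.8 and 171 in G34W. HOXC9 was at 362 in EV replicate 2, 356 and 535 in WT, and 192 and 289 in G34W. HOXC8 was low only in G34W replicate 1, whereas HOXC9 was lower in both G34W libraries (-0.89, SE 0.41), just short of an unadjusted p of 0.05, which it passed without G34W replicate 2 (-1.19) or without WT replicate 1 (-1.18).

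Toward the posterior end of HOXC, HOXC10 was at 200.3 in EV replicate 2, 74.0 and 106 in WT, and 102 and 64.7 in G34W. It did not separate G34W from WT, and EV replicate 2 was highest. HOXC11 was at 176 in EV replicate 2, 94.8 and 179 in WT, and 49.7 and 48.1 in G34W. The G34W libraries were close to each other and below all controls, with a difference of -1.40 (SE 0.58, 95% confidence interval -2.66 to -0.14; limma adjusted p = 0.9998). HOXC11 did not pass an unadjusted p of 0.05 without WT replicate 2 (-0.94) or without either G34W library. HOXC13, which controls hair and nail keratins, was at 76.2 in EV replicate 2, 56.1 and 37.9 in WT, and 8.70 and 4.55 in G34W. Its difference of -2.68 (SE 0.90, 95% confidence interval -4.65 to -0.72; limma adjusted p = 0.9998) was the largest fitted among the 34 HOX genes in the 5 libraries. With each library left out in turn, HOXC13 missed an unadjusted p of 0.05 only without WT replicate 1 (-2.41). The ratio of its group means was 7.09 in favour of WT. HOXC12 was listed at 0 in EV replicate 2 and G34W replicate 1 and did not exceed 4.37 elsewhere.

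HOXC13 also took a smaller part of the summed HOXC signal, a measure that a library's scale does not touch and that was chosen after the values were seen. It made up 4.69% in EV replicate 2, 4.66% and 2.52% in WT, and 1.30% and 0.449% in G34W. HOXC9, by comparison, made up 22.3% in EV replicate 2, 29.6% and 35.6% in WT, and 28.7% and 28.6% in G34W. HOXC10 made up 12.3% in EV replicate 2, 6.15% and 7.05% in WT, and 15.3% and 6.40% in G34W, with overlap. HOXC11 made up 10.8% in EV replicate 2, 7.88% and 11.9% in WT, and 7.43% and 4.75% in G34W. For HOXC11 the shares of G34W replicate 1 and WT replicate 1 nearly met. The share of HOXC13 was lower in both G34W libraries than in the 3 controls, while the shares of HOXC9 in G34W lay within the range of the controls.

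In the HOXD cluster, on chromosome 2, the median difference of 7 tested genes was -0.57, and 5 of them were separate and lower in G34W. HOXD1 was at 43.1 in EV replicate 2, 42.8 and 35.0 in WT, and 16.4 and 17.6 in G34W, low in both G34W libraries but with an interval that included 0 (-1.14, SE 0.81). HOXD3 was at 297 in EV replicate 2, 188 and 304 in WT, and 211 and 254 in G34W, with overlap. HOXD4 was at 222 in EV replicate 2, 167 and 174 in WT, and 117 and 112 in G34W, without overlap. HOXD8 and HOXD9 differed little between the groups. HOXD8 was at 498 in EV replicate 2, 514 and 445 in WT, and 437 and 438 in G34W. HOXD9 was at 179.9 in EV replicate 2, 134 and 195 in WT, and 123 and 152 in G34W.

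HOXD10 and HOXD11, neighbours that act in the lower limb and forearm skeleton, had the smallest unadjusted p of the HOX genes. HOXD10 was at 394 in EV replicate 2, 342 and 368 in WT, and 159 and 94.8 in G34W. HOXD11 was at 338 in EV replicate 2, 319 and 299 in WT, and 133 and 97.3 in G34W. For both genes the 3 controls lay close together, and both G34W libraries lay well below them, replicate 2 being the lower. The difference from WT was -1.52 for HOXD10 (SE 0.44, 95% confidence interval -2.47 to -0.57; limma adjusted p = 0.9998). It was -1.43 for HOXD11 (SE 0.43, 95% confidence interval -2.38 to -0.48; limma adjusted p = 0.9998). They were the only HOX genes with an unadjusted p under 0.05 whichever of the 5 libraries was left out. Without G34W replicate 1 the differences were -1.89 and -1.66. The gene spans of HOXD10 and HOXD11 overlap on the same strand in GENCODE, though not in RefSeq, so their values may share reads. HOXD12 was listed at 0 in all but G34W replicate 2 (1.14). HOXD13, the most posterior gene of the cluster, was at 4.37 in EV replicate 2, 1.67 and 25.5 in WT and at 0 in both G34W libraries.

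Because HOXD10 and HOXD11 were both low in G34W while HOXD8 was nearly level, the 250 bases before each start are shown for the 3 genes. They are RefSeq promoters on GRCh38.p14, plus strand, 5′ to 3′, at chr2:176116528-176116777 for HOXD10, chr2:176107030-176107279 for HOXD11 and chr2:176129455-176129704 for HOXD8. Capitals mark matches, on either strand, to the core of a TATA box (TATAAA), to a CCAAT box, to the core of a GC box (GGGCGG) or to a common form of the site for PBX with HOX proteins (TGATTNAT).
HOXD10: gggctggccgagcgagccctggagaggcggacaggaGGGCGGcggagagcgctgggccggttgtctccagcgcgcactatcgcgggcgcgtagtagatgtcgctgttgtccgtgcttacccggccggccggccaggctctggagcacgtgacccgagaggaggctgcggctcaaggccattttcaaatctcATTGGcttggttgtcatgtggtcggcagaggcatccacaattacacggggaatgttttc
HOXD11: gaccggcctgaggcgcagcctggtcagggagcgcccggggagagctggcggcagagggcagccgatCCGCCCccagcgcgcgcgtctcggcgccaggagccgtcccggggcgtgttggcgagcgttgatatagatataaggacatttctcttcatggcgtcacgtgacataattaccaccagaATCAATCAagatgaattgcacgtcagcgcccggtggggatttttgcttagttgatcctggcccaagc
HOXD8: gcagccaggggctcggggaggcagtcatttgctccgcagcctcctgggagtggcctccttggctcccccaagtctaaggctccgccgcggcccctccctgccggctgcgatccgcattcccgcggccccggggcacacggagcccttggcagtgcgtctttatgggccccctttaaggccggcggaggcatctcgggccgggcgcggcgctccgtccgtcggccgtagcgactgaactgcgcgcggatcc
HOXD10 held 1 GC box and 1 CCAAT box (as ATTGG), the latter 59 bases before the start. HOXD11 held 1 GC box (as CCGCCC) and 1 PBX-HOX site (as ATCAATCA), the latter 67 bases before the start. The HOXD8 window held none of the 4. Of 35116 promoters of the same length, 42.6% held a GC box, 32.01% a CCAAT box, 10.7% a TATA box and 2.48% a PBX-HOX site. Promoters were found for 20 of the 38 members, in 27 windows, of which 13 held a GC box, 18 a CCAAT box, 5 a TATA box and 2 a PBX-HOX site. The windows held 23 CpG in HOXD10, 23 in HOXD11 and 28 in HOXD8, against a median of 19 over the members and 11 over all promoters. A match describes these letters only.

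HOXD10 and HOXD11 were put together as a share of the summed HOXD signal after their values were seen. They made up 37.0% in EV replicate 2, 38.7% and 36.1% in WT, and 24.5% and 16.5% in G34W. HOXD8 made up 25.2% in EV replicate 2, 30.1% and 24.1% in WT, and 36.5% and 37.5% in G34W. These shares restate the values above without the scaling of each library. That of HOXD8 was higher in G34W although its signal was slightly lower, as the rest of the sum was lower still.

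**Figure D3:**
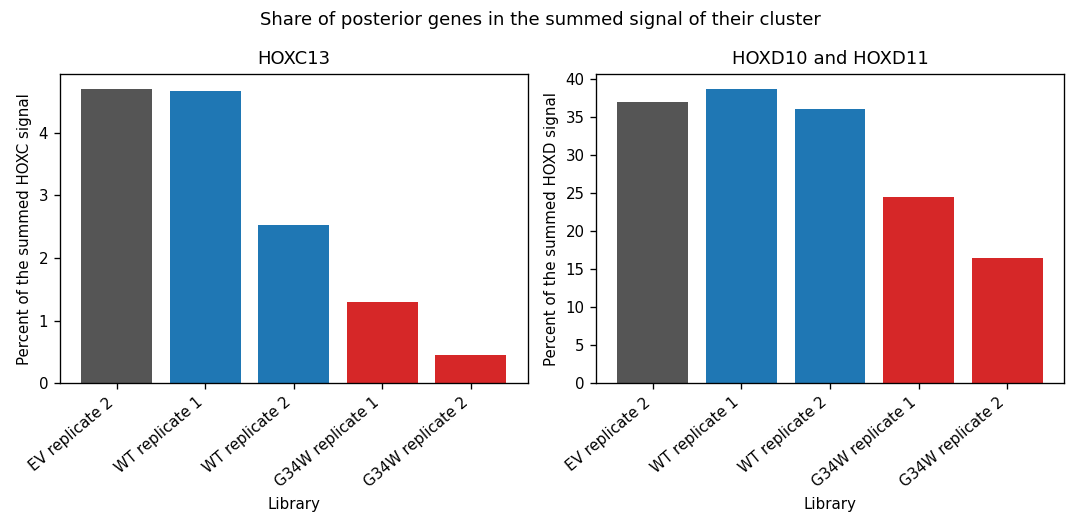
Percent of the summed signal of their cluster taken by HOXC13 (left) and by HOXD10 with HOXD11 (right), 1 bar per library. In G34W the bars are 1.30% and 0.449% for HOXC13 and 24.5% and 16.5% for HOXD10 with HOXD11, all below the bars of EV replicate 2 and WT.

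**Figure D4:**
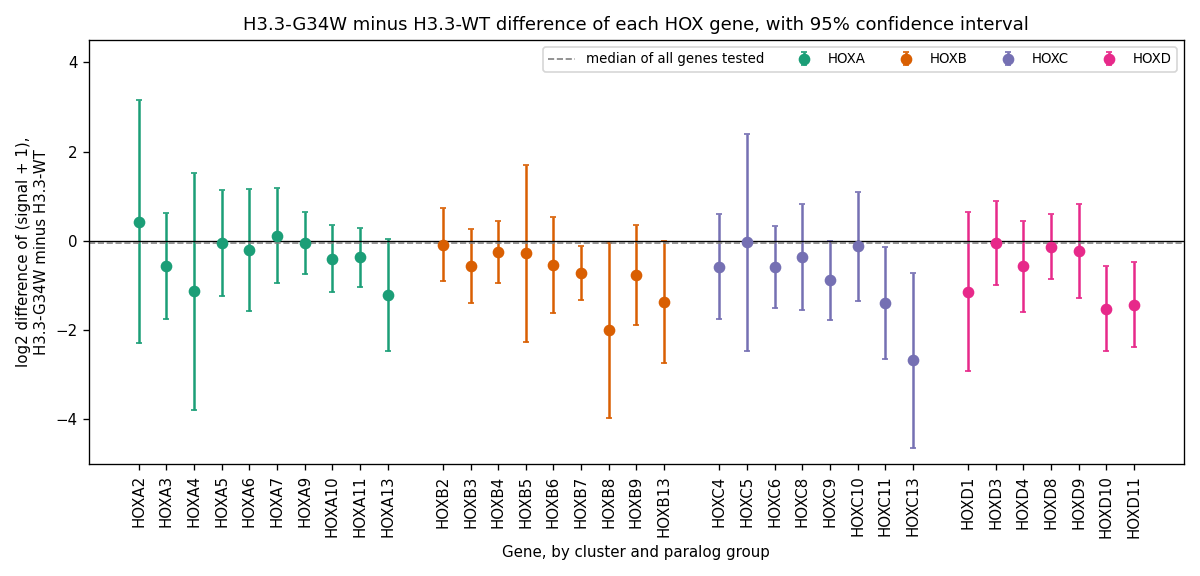
G34W minus WT difference of log2(signal + 1) for each of the 34 tested HOX genes, ordered by cluster and paralog group; bars are 95% confidence intervals from limma and the dashed line is the median of all genes tested (-0.06). The intervals of HOXB7, HOXB8, HOXB13, HOXC11, HOXC13, HOXD10 and HOXD11 lie below 0.

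Read across clusters, the median difference was -0.33 over 6 anterior genes (groups 1 to 3), -0.36 over 15 central genes (groups 4 to 8) and -0.89 over 13 posterior genes (groups 9 to 13). This was not an even trend along the clusters. Group 11 (HOXA11, HOXC11 and HOXD11) had a median of -1.40 and group 13 (HOXA13, HOXB13 and HOXC13) one of -1.38, but posterior groups 9 and 10 had -0.50 and -0.40. Groups 3, 4 and 6 had -0.57, -0.58 and -0.55, and group 1 had -1.14, of which only HOXD1 was tested. The order of these smaller medians depended on G34W replicate 1. In G34W replicate 2 alone they were -0.22, -0.15 and -0.16 for groups 3, 4 and 6 and -0.20 and -0.45 for groups 9 and 10, whereas groups 11 and 13 had -1.42 and -0.77. Groups 7 and 8 had -0.30 and -0.36, although HOXB8 had the second largest difference of the 34 genes. All 6 genes of groups 11 and 13 were separate and lower in G34W, HOXA11 by a small amount. Groups 2 and 5 had medians of 0.17 and -0.06, and no gene in them separated G34W from WT. The summed signal of group 13, HOXD13 included, was 492 in EV replicate 2, 385 and 278 in WT, and 80.3 and 166 in G34W. That of group 11 was 1188 in EV replicate 2, 1134 and 1338 in WT, and 802 and 739.8 in G34W. For both groups the G34W libraries were lowest.

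Of the 7 HOX genes under an unadjusted p of 0.05, 5 were among the 9 tested genes of groups 10 to 13, a boundary chosen after the values were seen. The median of these 9 was -1.21 in G34W replicate 1 and -0.77 in G34W replicate 2, each against the mean of WT. The median of the 25 genes of groups 1 to 9 was -0.49 in replicate 1 and -0.15 in replicate 2. In G34W replicate 2, 8 of the 9 lay below both WT libraries, as did 13 of the 25 and 23.2% of all genes. In G34W replicate 1 it was also 8 of the 9, with 19 of the 25 and 47.6% of all genes. No test of the difference between anterior and posterior genes was made.

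**Figure D5:**
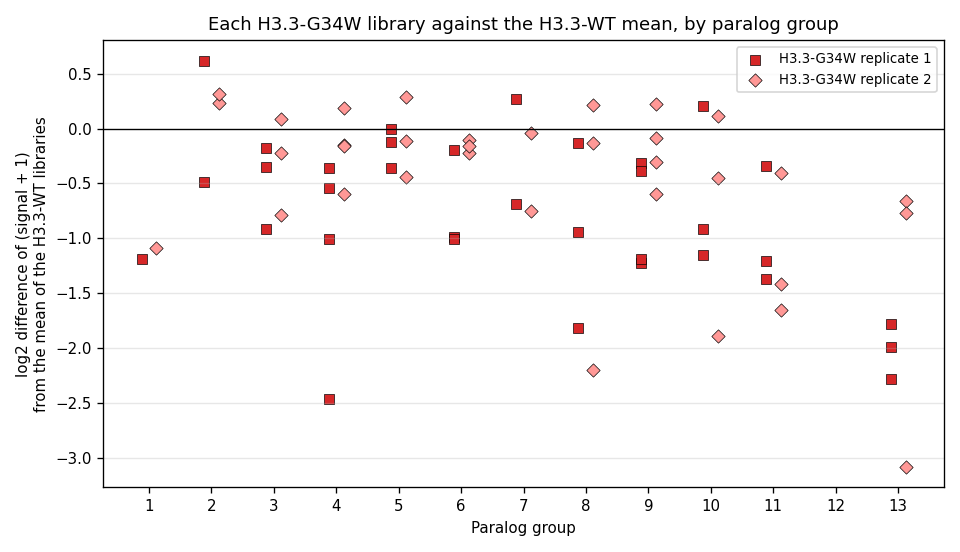
Difference of log2(signal + 1) of each G34W library from the mean of the WT libraries for the 34 tested HOX genes, against paralog group, 1 symbol per gene and library. In group 13 all points lie below -0.6, whereas in groups 2 to 7 most points of replicate 2 lie near 0.

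G34W was also set against EV replicate 2, which shares its G34W libraries with the comparison above. At an adjusted p under 0.05 (limma) 0 of the 34 HOX genes and 1 gene in all, 0.00615%, were called. At an unadjusted p under 0.05, 5 of the 34 were lower in G34W, against 0.880% of all genes tested. They were HOXC13 (-3.40, SE 1.10), HOXB13 (-2.46, SE 0.77), HOXC11 (-1.83, SE 0.70), HOXD10 (-1.67, SE 0.53) and HOXD11 (-1.56, SE 0.53), all of groups 10 to 13. Without G34W replicate 2 the 5 became 8, but all genes under that threshold in either direction also went from 334 to 1345. The genes called became 29, with 0 HOX genes among them. The median difference of the 34 was -0.64, against -0.03 over all genes tested. With a single EV library this comparison has no replicate check on the EV side.

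WT against EV replicate 2 asked whether the wild-type histone alone moved the HOX genes. At an adjusted p under 0.05 (limma) 0 of the 34 and 1 gene in all, 0.00615%, were called. At an unadjusted p under 0.05 in either direction it was also 0 of the 34, against 1.0% of all genes tested. Without WT replicate 1 the genes called became 20, again without a HOX gene. The median difference was -0.17, against 0.02 over all genes tested. The largest differences were those of HOXC10 (-1.17, SE 0.68) and HOXB13 (-1.07, SE 0.77). The least precise were those of HOXA2 (-0.30, SE 1.53), HOXA4 (0.88, SE 1.49) and HOXC5 (-0.92, SE 1.36). For HOXD10 and HOXD11 the WT minus EV differences were -0.15 and -0.13 (SE 0.53 for both).

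Cofactors, neighbours and regulators of the HOX genes were read from fixed lists, in the comparison of G34W with WT at an unadjusted p under 0.05, which 1.18% of all genes tested passed as lower and 1.56% as higher. None of their genes passed the adjusted threshold. Of 9 cofactors of the PBX, MEIS and PKNOX families, which bind DNA beside HOX proteins, 1 was higher and 0 lower. MEIS3 was at 597 in EV replicate 2, 515 and 499.8 in WT, and 697 and 1004 in G34W (0.72, SE 0.33), above all controls in both G34W libraries. The most abundant cofactors were MEIS2 (-0.36, SE 0.34) and PKNOX1 (-0.21, SE 0.28).

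Of 12 tested genes beside or in the wider region of the HOX clusters, 0 passed in either direction, and their median difference was 0.06. EVX1, EVX2, PRAC1 and PRAC2 of this list were too low to be tested. The 2 most abundant were ATP5MC3, of the wider HOXD region (0.36, SE 0.27), and CBX5, near HOXC (0.09, SE 0.25). Of 39 Polycomb and trithorax genes, which maintain the off and on states of HOX genes, 0 passed in either direction, and the median was -0.11. The most abundant of these were RBBP7 (-0.21, SE 0.27) and NSD2 (-0.26, SE 0.29). Of 11 tested inducers of HOX genes and their receptors, 0 passed, led by ALDH1A3 (0.03, SE 0.29) and RXRA (-0.19, SE 0.28). The non-coding RNA genes of the clusters were not analysed here, and where they overlap HOX genes their reads may not be told apart.

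Among 14 tested genes known as targets or partners of posterior HOX genes in limb and bone, 3 were lower in G34W and 1 higher (1.18% and 1.56% of all genes), with a median of -0.39. PITX1, a hindlimb identity factor, was at 213 in EV replicate 2, 163 and 115 in WT, and 27.1 and 45.0 in G34W. Its G34W libraries were both below the 3 controls, with a difference of -1.94 (SE 0.58; limma adjusted p = 0.9998), and it was the only gene of this list to pass an unadjusted p of 0.05 against EV replicate 2 as well (-2.57). EPHA7, an ephrin receptor, was at 396 in EV replicate 2, 378 and 932 in WT, and 268 and 265 in G34W (-1.15, SE 0.44). DCN, which encodes the matrix proteoglycan decorin, was at 449 in EV replicate 2, 506 and 397 in WT, and 201 and 298 in G34W (-0.87, SE 0.39). Both were lower in the G34W libraries than in the 3 controls. BMP7, a bone morphogenetic protein, was at 4.46 in EV replicate 2, 7.58 and 0.820 in WT, and 65.2 and 18.1 in G34W (3.17, SE 1.44), higher in both. GREM1, a BMP antagonist and the most abundant of the list, was at 11056 in EV replicate 2, 10164 and 26619 in WT, and 9451 and 8473 in G34W (-0.88, SE 0.41). EPHA4, next in abundance, was at 944 in EV replicate 2, 931 and 1484 in WT, and 325 and 932 in G34W (-1.09, SE 0.49).

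Markers of other cell types were read beside these results. The 9 neural markers, of which NES was most abundant, summed to 10581.5 in G34W replicate 1, 13762 in replicate 2, 13380 and 21236 in WT, and 16142 in EV replicate 2. The sum follows NES and TUBB3, and less abundant members went different ways. OTX2 was at 541, DCX at 196 and PAX6 at 37.2 in G34W replicate 1. In the other libraries compared they did not exceed 1.80, 6.83 and 5.96. NEUROD1 was above 0 only in G34W replicate 1 (0.512). GFAP was instead highest in G34W replicate 2 (110, against 41.5 in replicate 1), as was SOX1 (2.27, against 0.512). MAP2 was highest in EV replicate 2. The 7 haematopoietic markers summed to between 1091 and 1447, most of it CD68, and PTPRC did not exceed 25.4. The 5 epithelial markers summed to between 36108 and 47217, led by KRT18, and EPCAM was at 2175 in G34W replicate 1 and at 9.97 to 46.6 elsewhere. The 5 endothelial markers summed to 2324 in G34W replicate 1, 876 in replicate 2, 2090 and 2120 in WT and 2150 in EV replicate 2, led by TEK, while KDR was at 656 in G34W replicate 1 and at 26.6 to 78.3 elsewhere. At an unadjusted p under 0.05, NES and TEK were lower in G34W than in WT and KRT19, MAP2 and DCX higher. DCX was at 4.27 in G34W replicate 2, and MAP2 was highest in EV replicate 2 (116, against 77.2 and 51.1 in G34W) and low in WT (5.28 and 2.35).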

How the data were processed

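RNA from hFOB 1.19 cells transduced with EV, WT or G34W vectors was measured in 2 libraries per group. Per the study's methods, the authors made the deposited signal values by kallisto quantification against GRCh38 transcript models and normalised the estimated counts with DESeq2. Whether strand was used in quantification is not given, and depth per library is unknown.

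Groups were read from the sample titles. Genes with a mean of at least 10 over 5 libraries (16259 of 35639) were tested on log2(signal + 1) with limma 3.58.1 in R 4.3.3, with a trended and robust prior variance, 2 residual degrees of freedom per gene and Benjamini-Hochberg adjustment. EV replicate 1 was left out because most genes were listed at 0. Signal is relative to the normalisation, so a shift common to all genes was not measured. Rescaling each library by its median ratio over genes with a mean of at least 50 turned the sign of 4 members, all with small differences. Other alternatives changed the pseudocount, filter, prior, libraries and replicate block. The fit was tested on simulated data. Figures were drawn with matplotlib 3.10.9.

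All 38 members were named, and genes of the lists were named where abundant or under an unadjusted p of 0.05. Members and lists were chosen with earlier results of these data known. Of the genes that match the symbol rule, 1 is not reported here.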

Additional observations from a re-analysis of the deposited data

Results flagged for a closer look

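EV replicate 1, which no comparison used, held HOXC signal far above EV replicate 2, while all HOXA, HOXB and HOXD genes and HOXC12 were listed at 0. This stood out as signal in data outside the comparisons. The HOXC genes summed to 45353.5 in EV replicate 1 and 1624 in EV replicate 2. The values in EV replicate 1 were 4479.5 for HOXC4, 734 for HOXC5, 10511 for HOXC6, 5572 for HOXC8, 10247 for HOXC9, 6797 for HOXC10, 4581 for HOXC11 and 2433 for HOXC13. HOXC13 made up 5.36% of the HOXC sum there and 4.69% in EV replicate 2. Zeros were not limited to the other HOX clusters. In EV replicate 1, 10129 of the 16259 tested genes were listed at 0, among them SPARC, COL1A1 and EZH2. The spread of zeros and raised values over the chromosomes was not analysed, so signal cannot be called particular to HOXC. Raised values were not limited to the HOXC locus either. The nearby genes CBX5 and CALCOCO1 were at 176555 and 89041 against 6930.2 and 3011 in EV replicate 2, and genes on other chromosomes such as BMI1 and MEN1 at 27982 and 36881 against 1261 and 1366. The HOXC sum was 27.9 times that of EV replicate 2. Over the 6118 tested genes above 0 in both EV libraries, the ratio had a median of 0.808 and quartiles of 0.0487 and 20.9. The values of EV replicate 1 summed to 157595150 over all genes, against 41985190 in EV replicate 2. The difference between the EV libraries was not tested, and neither was its cause.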

How the results depend on the processing

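No HOX gene passed an adjusted p under 0.05 (limma) under any alternative. The genes called in all were 1 in each comparison as reported. For G34W against WT they were 0 with a pseudocount of 0.1, no filter, no robust prior or rescaling. They were also 0 there with neither a trend nor a robust prior, with EV replicate 1 kept, or with only 4 libraries. Against EV they were 0 for both groups with no filter, no robust prior, neither trend nor robust prior, rescaling or EV replicate 1 kept. With no filter, genes with an unadjusted p under 0.05 were 615 for G34W against EV (334 as reported) and 476 for WT against EV (163 as reported). With neither a trend nor a robust prior, genes under 0.05 for WT against EV were 377. In that fit HOX genes lower in G34W than in EV were 10 (5 as reported), beside 446 genes in all under 0.05 (334 as reported). With EV replicate 1 kept, the genes under 0.05 were 37 (446 as reported), 129 and 51, and the HOX genes 0 and 1.

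With the replicate block, 0 genes were called in each comparison, 691 had an unadjusted p under 0.05 for G34W against WT, 279 for G34W against EV and 375 for WT against EV. In it 6 HOX genes were lower in G34W than in WT, as were 2.16% of all genes, and 4 were lower than in EV. Deviations of libraries with the same number correlated at 0.0945, and nothing in the labels pairs them.

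Leaving out 1 library at a time, with any lone library assumed to vary like the other groups, gave these ranges. G34W against WT had 0 to 69 genes called, 241 to 1598 under an unadjusted p of 0.05 and 4 to 7 HOX genes lower. G34W against EV had 1 to 29, 238 to 1345 and 5 to 8. WT against EV had 1 to 20, 171 to 362 and 0 to 0. HOX genes lower in both G34W libraries than in both WT libraries were 21 to 28 of 34 (an alternative chosen after seeing the data, with fewer libraries to separate), beside 23.2% to 47.6% of all genes. They were 18 of 34 with rescaling (14.3% of all genes), 21 of 37 with no filter (12.6%) and 16 of 27 with a mean of at least 50 (14.8%). The median HOX difference ran from -0.80 to -0.22 between left-out libraries.

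Signs turned in these cases. Rescaling gave 0.011 for HOXA5, 0.023 for HOXA9, 0.027 for HOXC5 and 0.020 for HOXD3. Leaving out 1 library at a time gave, from lowest to highest, -0.70 to 1.55 for HOXA2, -2.47 to 0.19 for HOXA4, -0.33 to 0.22 for HOXA5, -0.039 to 0.27 for HOXA7, -0.32 to 0.23 for HOXA9 and -0.91 to 0.11 for HOXA10. The ranges were -0.49 to 0.31 for HOXB2, -1.18 to 0.61 for HOXB5 and -1.16 to 0.064 for HOXB6. They were -1.08 to 1.001 for HOXC5, -0.95 to 0.22 for HOXC8, -0.45 to 0.20 for HOXC10, -0.39 to 0.30 for HOXD3 and -0.51 to 0.032 for HOXD9. Without G34W replicate 1, HOXA4, HOXA9, HOXA10, HOXB2, HOXC5 (0.29), HOXC8 and HOXD3 (0.086) were above 0 and HOXA7 below. Without G34W replicate 2 HOXC10 was above 0. Without WT replicate 1 HOXA2 was below 0 and HOXA5 and HOXA9 (0.087) above. Without WT replicate 2 HOXB2 (0.28), HOXB5, HOXB6, HOXC5, HOXC10 (0.13), HOXD3 and HOXD9 were above 0. None of these genes passed an unadjusted p of 0.05 as reported. For the other changes above the cause was not tested.

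HOXD10 and HOXD11 kept an unadjusted p under 0.05 in every alternative but the one that kept EV replicate 1. The fit of only 4 libraries and the fit without EV replicate 2 are the same fit. HOXB13 was no longer under 0.05 with no filter (limma unadjusted p = 0.056) or with no robust prior (limma unadjusted p = 0.0501). The edgeR and DESeq2 tests named as alternatives were not run, because the values are normalised and not counts. Depth is unknown, so the precision of low members such as HOXB8 and HOXC13 cannot be set from read numbers.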

Other observations

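4 HOX genes were too low to be tested. HOXB1 was listed at 0 in all 6 libraries, HOXC12 did not exceed 4.37, and HOXD12 was above 0 only in G34W replicate 2 (1.14). HOXD13 was at 25.5 in WT replicate 2 and at 0 in both G34W libraries.

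HOXA13 and HOXB13 took shares of their clusters that differed between the libraries. HOXA13 made up 5.59% of the HOXA sum in EV replicate 2, 5.74% and 3.72% in WT, and 1.91% and 2.99% in G34W. HOXB13 made up 5.96% of the HOXB sum in EV replicate 2, 3.80% and 1.93% in WT, and 1.07% and 1.91% in G34W. These shares were chosen after the values were seen.

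The comparisons rest on 2 libraries per group, 1 for EV, and on the titles for direction. Protein, chromatin and the transgene were not analysed here.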
